A study of Mus musculus with 50 samples.

Results

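Tnf and 9 further genes of inflammatory cytokines (Il1b, Il1a, Il1rn, Il6, Il10, Il12b, Il15, Il27 and Lif) were followed across knockouts of the kinases SGK1 and SGK3 and across activation of STING in a macrophage cell line. The genes were taken by symbol from the deposited tables of gene counts and of length-scaled transcript abundance (TPM), which list 55416 genes, and all 10 symbols were found. The study's 50 libraries came from CRISPR-edited RAW264.7 macrophages, an established line of mouse origin. The edited lines were a double knockout of SGK1 and SGK3 (SGK1/3 dKO), an SGK3 knockout and an SGK1 knockout, and control cells, labelled WT, carried an empty vector sgRNA. DMXAA, which activates mouse STING, was given at 10 µg/mL for 2 h, or cells were left at rest. A further group of control cells received the SGK inhibitor Sanofi-14h at 500 nM during the 2 h before DMXAA.

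Batch b1 held double-knockout (n = 5), SGK3-knockout (n = 5), inhibitor-pretreated control (n = 5) and control (n = 5) cells with DMXAA, and SGK3-knockout (n = 3) and control (n = 3) cells at rest. Batch b2 held double-knockout (n = 3), SGK1-knockout (n = 4) and control (n = 4) cells with DMXAA, and double-knockout, SGK1-knockout and control cells at rest (n = 3 each). Batch b3 held 4 libraries marked as reruns, which entered no main comparison. The SGK1 knockout was present only in b2 and the SGK3 knockout only in b1, so line and batch cannot be told apart between them and they were not tested against each other. Only 1 line is named for each genotype, and the labels do not tell whether these were clones, nor which control libraries received the DMSO vehicle they mention. Nothing says that replicates were separate cultures, so every p-value here covers the spread between libraries only.

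STING is a sensor of cyclic dinucleotides that signals through TBK1 to IRF3 and to NF-kB. Macrophages are a main source of TNF, whose gene is an early target of NF-kB and whose mRNA is short-lived, because AU-rich elements in it are bound by decay proteins such as tristetraprolin. TNF is made as a membrane protein and shed by the protease ADAM17, whereas IL-1β is cut from a precursor by caspase-1. IL-1Ra, the product of Il1rn, binds the IL-1 receptor without activating it and so opposes IL-1α and IL-1β. IL-10 restrains macrophage activation, IL-15 sustains natural killer cells and memory T cells, and Il27 and Il12b encode subunits of heterodimeric cytokines.

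Library depth in estimated counts was 57859509 to 101068327 for b1, 63461414 to 112007140 for b2 and 76295599 to 86754670 for b3. Levels are given in CPM, the count scaled to the TMM-adjusted size of its library. In 4 libraries of b2, log2 CPM rose with gene length by more than 0.1 per doubling (a steep length trend). These were X of the double knockout and P of the SGK1 knockout with DMXAA, and E and F of the SGK1 knockout at rest. With DMXAA, Sgk1 was at 4.88 ± 1.15 CPM in the double knockout and 51.2 ± 3.17 CPM in control cells of b1 (SD, n = 5 each). In b2 it was at 4.17 ± 2.28 CPM in the SGK1 knockout and 34.1 ± 6.27 CPM in control cells (SD, n = 4 each). Sgk1 was also lower than in b1 control cells with DMXAA where SGK1 was not the edited gene. It was at 22.1 ± 2.37 CPM in the SGK3 knockout and 11.7 ± 2.08 CPM in inhibitor-pretreated control cells, both with DMXAA (SD, n = 5 each). In b1 control cells at rest it was at 1.62 ± 0.33 CPM (SD, n = 3), so low Sgk1 RNA was not particular to the SGK1 edit. Sgk3 was not lower in the SGK3 knockout, with a log2 fold change against control cells of -0.08 ± 0.05 (SE) at rest and 0.06 ± 0.04 with DMXAA (adjusted p = 0.38 and 0.266, edgeR). In the double knockout with DMXAA it was at 120.0 ± 1.46 CPM, against 102 ± 4.66 CPM in control cells of b1 (SD, n = 5 each; log2 fold change 0.23 ± 0.04, adjusted p = 1.8e-05), so it was higher there. In b2 it did not pass between these groups (0.01 ± 0.10, adjusted p = 0.971). Gene-level counts do not show an edited site. Cell type markers were read in the libraries of b1 and b2 only. Of 10 macrophage markers, Lyz2 (3187 to 7728 CPM), Csf1r (1356 to 2824 CPM) and Cd68 (311 to 492 CPM) were high, while Mertk was at most 0.0579 CPM. Among markers of other cell types, Cd3g, Flt3 and Mcpt4 were at 0 in every one of these libraries and the highest was Siglech, at up to 4.56 CPM.

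The promoters of the 2 members on which most results turn, Tnf and Il1rn, and of Il1b and Il6, which stayed near the limit of detection, are shown from 250 bases before to 50 bases after the annotated start. They were taken from RefSeq on GRCm38.p6, while the gene coordinates given further below are on GRCm39 and are not interchangeable with these. Of the 10 members, 7 had a promoter entry. The capitals mark matches to a TATA box (TATAAA, sense strand), an AP-1 site (TGANTCA), a C/EBP site (TTNNGNAAT) or the NF-kB consensus, the last 3 searched on both strands.
Tnf promoter (chr17:35201958-35202257, minus strand): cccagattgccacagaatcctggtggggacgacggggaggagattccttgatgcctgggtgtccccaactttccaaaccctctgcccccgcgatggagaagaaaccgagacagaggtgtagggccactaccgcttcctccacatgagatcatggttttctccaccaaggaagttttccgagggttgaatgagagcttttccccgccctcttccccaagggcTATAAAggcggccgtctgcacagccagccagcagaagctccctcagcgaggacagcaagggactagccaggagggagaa
Il1rn promoter (chr2:24345121-24345420, plus strand): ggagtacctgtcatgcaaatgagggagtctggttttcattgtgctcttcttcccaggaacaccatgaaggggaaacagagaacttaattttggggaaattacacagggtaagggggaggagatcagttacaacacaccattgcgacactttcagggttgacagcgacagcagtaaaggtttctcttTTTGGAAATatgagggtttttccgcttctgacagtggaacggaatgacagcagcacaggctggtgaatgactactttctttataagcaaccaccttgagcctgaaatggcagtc
Il1b promoter (chr2:129371090-129371389, minus strand): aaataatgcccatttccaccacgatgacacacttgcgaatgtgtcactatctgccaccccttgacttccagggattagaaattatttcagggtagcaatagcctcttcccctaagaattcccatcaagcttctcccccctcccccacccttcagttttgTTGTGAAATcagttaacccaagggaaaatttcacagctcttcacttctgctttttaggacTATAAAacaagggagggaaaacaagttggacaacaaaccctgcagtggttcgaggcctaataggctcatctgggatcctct
Il6 promoter (chr5:30012864-30013163, plus strand): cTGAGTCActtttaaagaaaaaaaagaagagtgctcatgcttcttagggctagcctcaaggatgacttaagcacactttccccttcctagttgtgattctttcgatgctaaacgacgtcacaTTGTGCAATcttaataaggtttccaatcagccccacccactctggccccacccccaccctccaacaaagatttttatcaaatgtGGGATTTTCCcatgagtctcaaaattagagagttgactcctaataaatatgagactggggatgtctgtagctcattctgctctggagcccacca
The Tnf window held a TATA box from 29 to 24 bases before the start and no match to the other motifs. The Il1b window held a TATA box from 31 to 26 and a C/EBP match from 91 to 83 bases before the start. The Il6 window held an NF-kB match from 44 to 35, a C/EBP match from 128 to 120 and an AP-1 match from 249 to 243 bases before the start. The shown start of Il1rn, 1 of its 3 entries, had a C/EBP match from 64 to 56 bases before it. Of 32851 mouse promoters of this length, 8.32% held the TATA box, 7.81% the AP-1 site, 11.5% the C/EBP site and 4.51% the NF-kB consensus. These are letter matches only, in windows shorter than the regulatory regions of the genes.

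The members covered a wide range of abundance, and most of the list was close to absent. In control cells with DMXAA in b1, Tnf was at 590 ± 36.1 TPM, Il1rn at 10.3 ± 0.91 TPM, Il15 at 9.44 ± 1.72 TPM and Il27 at 2.85 ± 0.445 TPM (SD, n = 5). In b2 the order was the same in these cells, with Tnf at 514 ± 80.8 TPM, Il1rn at 6.94 ± 0.21 TPM, Il15 at 5.26 ± 1.99 TPM and Il27 at 1.88 ± 0.861 TPM (SD, n = 4). Il1rn and Il15 were neighbours in this order and did not differ beyond their spread in either batch. Over all 50 libraries, counts ran from 1971 to 48281 for Tnf (median 24049), from 13 to 1627 for Il1rn (median 459), from 27 to 713 for Il15 (median 262) and from 0 to 142 for Il27 (median 35). A floor of 12 counts, taken as 3 read pairs, was reached in 13 libraries for Il10, in 11 for Il6, in 6 for Il1b, in 3 for Lif and in 1 for Il1a. Il12b had 0 counts in all 50. After the filter on low counts, 6 of the 10 members were tested in b1 (Tnf, Il1rn, Il6, Il10, Il15 and Il27) and 5 in b2 (the same without Il6).

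Tnf (ENSMUSG00000024401.15, chr17:35418357-35420983, minus strand, GRCm39) encodes TNF and was the most abundant member in every group. In b1 with DMXAA it stood at 353, 364, 372, 373 and 246 CPM in the double knockout and at 396, 391, 388, 419 and 371 CPM in the SGK3 knockout. It stood at 368, 342, 357, 293 and 312 CPM in inhibitor-pretreated control cells and at 511, 532, 575, 509 and 548 CPM in control cells. At rest it stood at 37.1, 37.5 and 42.5 CPM in the SGK3 knockout and at 43.2, 34.1 and 32.2 CPM in control cells. All libraries with DMXAA were above all libraries at rest, and among those with DMXAA every knockout and every inhibitor-pretreated library was below every control library. In b2 with DMXAA it stood at 281, 296 and 202 CPM in the double knockout, at 509, 361, 467 and 276 CPM in the SGK1 knockout and at 348, 473, 410.0 and 519 CPM in control cells. At rest it stood at 34.7, 25.1 and 40.2 CPM in the double knockout, at 26.9, 26.3 and 24.4 CPM in the SGK1 knockout and at 41.3, 45.5 and 29.3 CPM in control cells. In b2 the double knockout with DMXAA was again below the control cells in every library, while the SGK1 knockout overlapped them. This separation did not extend to the reruns of b3, scaled with b2. The rerun double-knockout libraries V and W with DMXAA were at 360 and 353 CPM, above b2 control library K at 348 CPM and above all double-knockout libraries of b2.

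**Figure D1:**
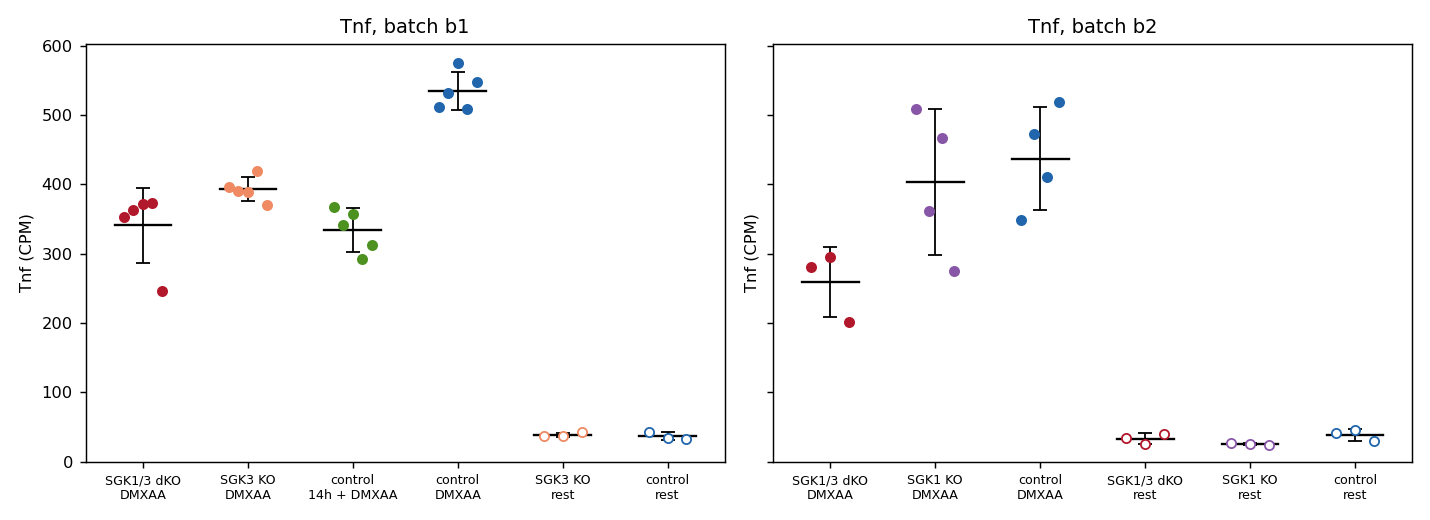
Tnf in each library of b1 and b2, in CPM on a linear axis, by genotype and treatment, where each point is 1 library, filled with DMXAA and open at rest, and the bar is the group mean. The DMXAA groups lie between 202 and 575 CPM and the rest groups between 24.4 and 45.5 CPM.

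DMXAA raised Tnf in every line sequenced with and without it. In b1 the log2 fold change of DMXAA over rest was 3.33 ± 0.13 in the SGK3 knockout (SE, adjusted p = 3.9e-16, edgeR quasi-likelihood test with Benjamini-Hochberg adjustment), which is 10.1-fold, and 3.87 ± 0.13 in control cells (adjusted p = 2.0e-17), which is 14.7-fold. In b2 it was 2.96 ± 0.24 in the double knockout (7.79-fold, adjusted p = 9.1e-08), 3.96 ± 0.24 in the SGK1 knockout (15.6-fold, adjusted p = 2.0e-09) and 3.50 ± 0.24 in control cells (11.3-fold, adjusted p = 1.3e-08). In bulk RNA a change in the number of responding cells and a change in RNA per cell cannot be told apart. With inhibitor pretreatment the change over resting control cells was 3.19 ± 0.12 (adjusted p = 1.3e-15). By fitted log2 fold change Tnf was number 400 of 16947 genes tested in b1 control cells. That ranking set no floor on abundance, and Il10, with 0 counts in these cells at rest, was number 49 in it.

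Among cells given DMXAA, the double knockout had less Tnf than control cells in both batches. The log2 fold change was -0.65 ± 0.09 in b1 (adjusted p = 6.1e-06, edgeR) and -0.75 ± 0.21 in b2 (adjusted p = 0.0221), and the mean was 63.8% of the control mean in b1 and 59.4% in b2. The SGK3 knockout had 73.4% of the control mean (log2 fold change -0.45 ± 0.09, adjusted p = 0.000743). Inhibitor-pretreated control cells had 62.5% (log2 fold change -0.68 ± 0.09, adjusted p = 7.6e-06). In the SGK1 knockout it was at 92.2% of the control mean and did not pass the test (log2 fold change -0.12, 95% interval -0.49 to 0.26, adjusted p = 0.787). The b2 call of the double knockout ended without library X, the one with a steep length trend (log2 fold change -0.60, adjusted p = 0.137), and without control library L (adjusted p = 0.0581) or N (0.0688). It also ended with the b3 libraries added (-0.55, adjusted p = 0.076). The b1 calls of Tnf held in all 21 alternatives for the double knockout and for the SGK3 knockout.

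At rest, no knockout line passed the test for Tnf against control cells. The log2 fold change was 0.09 in the SGK3 knockout (95% interval -0.15 to 0.34, adjusted p = 0.78, edgeR). It was -0.58 in the SGK1 knockout (-1.02 to -0.14, adjusted p = 0.11), which passed in DESeq2 (0.0479) and in the joint fit (0.0165), and -0.22 in the double knockout (-0.65 to 0.22, adjusted p = 0.973). The SGK1-knockout libraries at rest lay below all control libraries, although 2 of them, E and F, had the steep length trend. Whether the fold response itself differed between lines was tested with an interaction term. For Tnf the difference of log2 responses was -0.54 for the SGK3 knockout minus control cells (95% interval -0.84 to -0.24, adjusted p = 0.108, edgeR, unadjusted 0.00188). It was 0.46 for the SGK1 knockout (-0.11 to 1.04, adjusted p = 0.691) and -0.54 for the double knockout (-1.14 to 0.06, adjusted p = 0.712). The first of these passed in DESeq2 (adjusted p = 0.02), in a fit of the groups alone (adjusted p = 0.00825) and without control rest library 1 (adjusted p = 0.034).

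Il1rn (ENSMUSG00000026981.16, chr2:24226865-24241506, plus strand, GRCm39), which encodes the IL-1 receptor antagonist, was lower in the double and SGK1 knockouts than in control cells and higher in the SGK3 knockout. With DMXAA in b1 it stood at 1.05, 2.12, 1.99, 1.37 and 2.02 CPM in the double knockout and at 16.4, 15.5, 13.8, 15.4 and 17.9 CPM in the SGK3 knockout. It stood at 10.9, 11.5, 11.8, 13.3 and 12.3 CPM in inhibitor-pretreated control cells and at 10.8, 10.3, 11.8, 11.2 and 10.1 CPM in control cells. It stood at rest at 18.6, 17.7 and 17.4 CPM in the SGK3 knockout and at 10.98, 11.3 and 9.85 CPM in control cells. Every double-knockout library lay below and every SGK3-knockout library above all control libraries of b1. With DMXAA in b2 it stood at 1.69, 2.76 and 1.20 CPM in the double knockout, at 3.07, 2.59, 2.21 and 1.58 CPM in the SGK1 knockout and at 7.04, 7.13, 6.23 and 6.93 CPM in control cells. At rest it stood at 0.196, 0.721 and 0.437 CPM in the double knockout, at 1.26, 0.16 and 0.966 CPM in the SGK1 knockout and at 6.10, 5.12 and 6.14 CPM in control cells. Both edited lines of b2 lay below all control libraries at rest and with DMXAA.

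**Figure D2:**
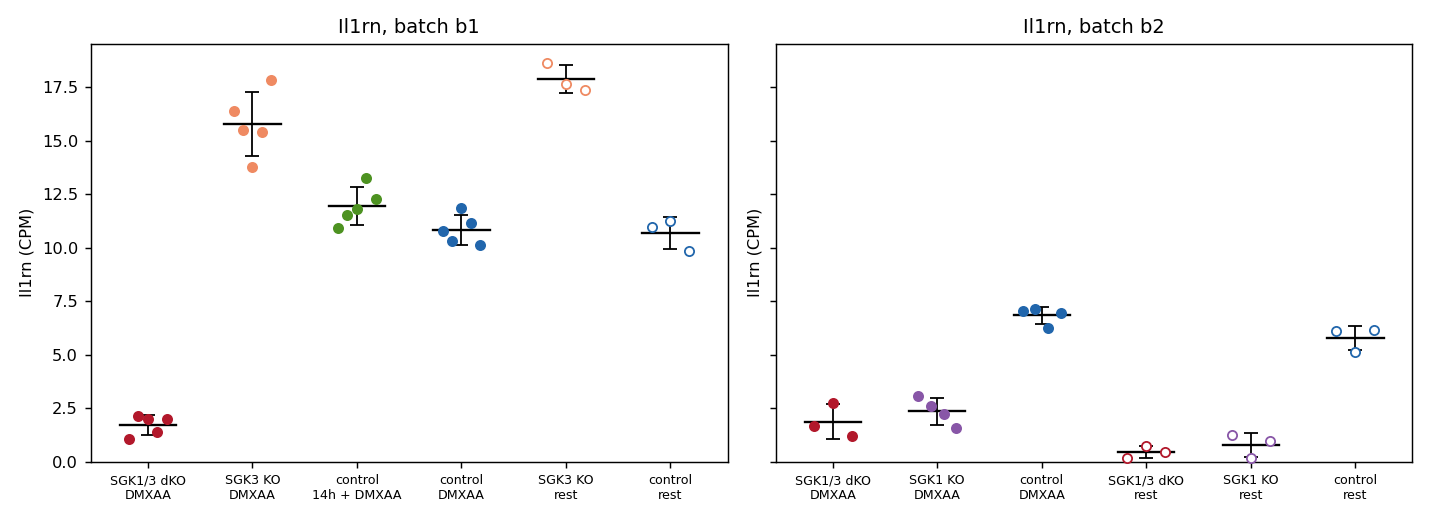
Il1rn in each library of b1 and b2, in CPM on a linear axis, by genotype and treatment, where each point is 1 library, filled with DMXAA and open at rest, and the bar is the group mean. The double knockout lies at 1.05 to 2.12 CPM with DMXAA in b1, and the SGK3 knockout lies at 13.8 to 18.6 CPM, above all control libraries.

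In the double knockout with DMXAA, Il1rn was at 15.8% of the control mean in b1 (log2 fold change -2.68 ± 0.12, adjusted p = 1.9e-17, edgeR). In b2 it was at 27.5% (-1.86 ± 0.49, adjusted p = 0.0138), a call that ended without library X (adjusted p = 0.0789). At rest it was lower in the double knockout of b2 (log2 fold change -3.68 ± 0.55, adjusted p = 0.000237), and this call held in all 17 alternatives. In the SGK1 knockout it was lower at rest (-2.86 ± 0.53, adjusted p = 0.00292) and with DMXAA, at 34.6% of the control mean (-1.53 ± 0.43, adjusted p = 0.0308). In the SGK3 knockout it was higher at rest (0.74 ± 0.14, adjusted p = 0.000371) and with DMXAA, at 146% of the control mean (0.54 ± 0.11, adjusted p = 0.000365). Inhibitor pretreatment gave 110% of the control mean and did not pass the test (log2 fold change 0.14, 95% interval -0.08 to 0.36, adjusted p = 0.426). Both calls of the SGK3 knockout ended in the joint fit of both batches (adjusted p = 0.256 at rest and 0.186 with DMXAA). The SGK1-knockout call with DMXAA is close to the threshold and held in 11 of 19 alternatives. It ended without control library K (adjusted p = 0.0663), L (0.076) or N (0.0702) and without SGK1-knockout library P (0.0643), Q (0.0723) or R (0.1), with b3 added (0.0673) and in limma on log2(TPM + 0.1) (0.16). The resting call ended without the steep libraries E and F (log2 fold change -2.19, adjusted p = 0.0751) and in a fit of the groups alone (adjusted p = 0.0613).

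DMXAA did not move Il1rn past the test in the SGK3 knockout, where the log2 fold change was -0.18 (95% interval -0.43 to 0.07, adjusted p = 0.326, edgeR). It did not in control cells either, at 0.02 in b1 (-0.23 to 0.27, adjusted p = 0.941) and 0.24 in b2 (-0.66 to 1.14, adjusted p = 0.996). Il1rn rose in the double knockout (2.06 ± 0.53, adjusted p = 0.0197) and in the SGK1 knockout (1.57 ± 0.49, adjusted p = 0.0441), in both from resting levels of at most 1.26 CPM. The rise in the double knockout ended without library U (adjusted p = 0.107), G (0.113) or I (0.0795), with the b3 libraries added (1.53, adjusted p = 0.207) and in a fit of the groups alone (0.142), and held in 12 of 17 alternatives. The rise in the SGK1 knockout ended without the steep libraries (0.86, adjusted p = 0.482) or without O (0.104), P (0.0649), Q (0.0705), E (0.129) or F (0.0848). It also ended with b3 added (1.41, adjusted p = 0.132), in a fit of the groups alone (0.223) and without the filter on low counts (0.0501), and held in 9 of 18 alternatives. In the 3 rerun libraries with DMXAA, Il1rn was at 0.568 and 0.319 CPM in the double knockout and at 1.08 CPM in the SGK1 knockout, below the b2 libraries of the same lines with DMXAA. The difference in response from control cells did not pass, at 1.82 for the double knockout (95% interval 0.47 to 3.17, adjusted p = 0.396, edgeR, unadjusted 0.0156) and 1.33 for the SGK1 knockout (0.04 to 2.62, adjusted p = 0.566). The latter interval lies wholly on the positive side, but the unadjusted p was not under 0.05, as the intervals are approximate. The 2 batches did not differ past the threshold in the double-knockout effect on Il1rn with DMXAA (b1 minus b2, log2 -0.79 ± 0.39, adjusted p = 0.238), although this difference passed without the steep libraries (-1.04, adjusted p = 0.0225).

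Il15 (ENSMUSG00000031712.11, chr8:83058261-83129851, minus strand, GRCm39), which encodes the cytokine that sustains natural killer cells, rose with DMXAA in control cells and in both single knockouts. In b1 with DMXAA it stood at 3.34, 4.01, 3.23, 4.19 and 4.24 CPM in the double knockout and at 6.16, 9.86, 6.56, 9.24 and 6.11 CPM in the SGK3 knockout. It stood at 6.94, 5.54, 4.97, 7.53 and 4.30 CPM in inhibitor-pretreated control cells and at 7.77, 6.09, 6.02, 8.12 and 8.15 CPM in control cells. At rest it stood at 1.76, 2.13 and 1.87 CPM in the SGK3 knockout and at 3.49, 1.89 and 3.22 CPM in control cells. With DMXAA the double knockout lay below the other 3 groups of b1 in every library, and these 3 groups overlapped. In b2 with DMXAA it stood at 2.59, 2.98 and 2.43 CPM in the double knockout, at 2.67, 2.90, 2.59 and 2.196 CPM in the SGK1 knockout and at 3.41, 4.05, 3.01 and 5.95 CPM in control cells. At rest it stood at 0.824, 0.987 and 1.67 CPM in the double knockout, at 0.943, 0.776 and 0.318 CPM in the SGK1 knockout and at 1.92, 0.985 and 1.34 CPM in control cells. Both knockouts of b2 lay below all control libraries with DMXAA, by a narrow margin. Among the reruns of b3 with DMXAA, SGK1-knockout library S (4.03 CPM) and double-knockout library V (3.29 CPM) lay within the range of these control libraries. Double-knockout library W (2.41 CPM) lay below it.

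The log2 fold change of Il15 with DMXAA was 1.98 ± 0.21 in the SGK3 knockout and 1.33 ± 0.21 in control cells of b1 (adjusted p = 7.1e-09 and 3.1e-06, edgeR). It was 1.93 ± 0.38 in the SGK1 knockout and 1.54 ± 0.38 in control cells of b2 (adjusted p = 0.00206 and 0.0205). The b2 control call ended without rest library B (adjusted p = 0.128), rest library C (0.095) or DMXAA library N (0.0933), and the SGK1-knockout call ended without the steep libraries (1.40, adjusted p = 0.177). In the double knockout of b2 the change was 1.20 (95% interval 0.44 to 1.97) and did not pass in the main fit (adjusted p = 0.0752), while it passed in 6 of 17 alternatives. With DMXAA, Il15 was lower in the double knockout than in control cells of b1, at 52.6% of their mean (log2 fold change -0.93 ± 0.17, adjusted p = 6.6e-05), and this held in all 21 alternatives. It did not pass in b2 for the double knockout (-0.62, 95% interval -1.33 to 0.09, adjusted p = 0.316) or the SGK1 knockout (-0.67, -1.32 to -0.02, adjusted p = 0.238). The latter interval lies wholly on the negative side, but the unadjusted p was not under 0.05, as the intervals are approximate. In the joint fit this SGK1-knockout difference passed (adjusted p = 0.0483). In b1 Il15 did not pass for the SGK3 knockout (0.07, -0.26 to 0.39, adjusted p = 0.834) or the inhibitor (-0.31, -0.63 to 0.02, adjusted p = 0.208). At rest no line passed in the main fit, and the SGK1 knockout stood at -1.06 ± 0.39 (adjusted p = 0.0981). This difference passed in DESeq2 (0.0424), in the joint fit (0.0096) and without SGK1-knockout library D (0.0377). The SGK3 knockout at rest passed without control rest library 2 (0.0204).

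Il27 (ENSMUSG00000044701.6, chr7:126188182-126194113, minus strand, GRCm39), which encodes the p28 subunit of IL-27, was low and rested on 0 to 142 counts per library. With DMXAA in b1 it stood at 0.534, 0.546, 0.633, 0.388 and 0.303 CPM in the double knockout and at 0.581, 0.622, 0.564, 0.946 and 0.932 CPM in the SGK3 knockout. It stood at 0.270, 0.374, 0.399, 1.05 and 0.285 CPM in inhibitor-pretreated control cells and at 1.40, 1.67, 1.43, 1.53 and 2.05 CPM in control cells. It stood at rest at 0.21, 0.134 and 0.401 CPM in the SGK3 knockout and at 0.468, 0.529 and 0.310 CPM in control cells. All control libraries of b1 with DMXAA lay above all other libraries of that batch. With DMXAA in b2 it stood at 0.312, 0.196 and 0.278 CPM in the double knockout, at 0.589, 0, 0.707 and 0 CPM in the SGK1 knockout and at 1.04, 0.984, 0.438 and 1.58 CPM in control cells. At rest it stood at 0, 0 and 0.0663 CPM in the double knockout, at 0.109, 0.136 and 0 CPM in the SGK1 knockout and at 0.477, 0.265 and 0.607 CPM in control cells. In b2 the double knockout with DMXAA lay below the control cells with DMXAA in every library, and the SGK1 knockout overlapped them. The rerun double-knockout libraries of b3 with DMXAA were at 0.301 and 0.602 CPM, the higher of them above the lowest b2 control library.

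**Figure D3:**
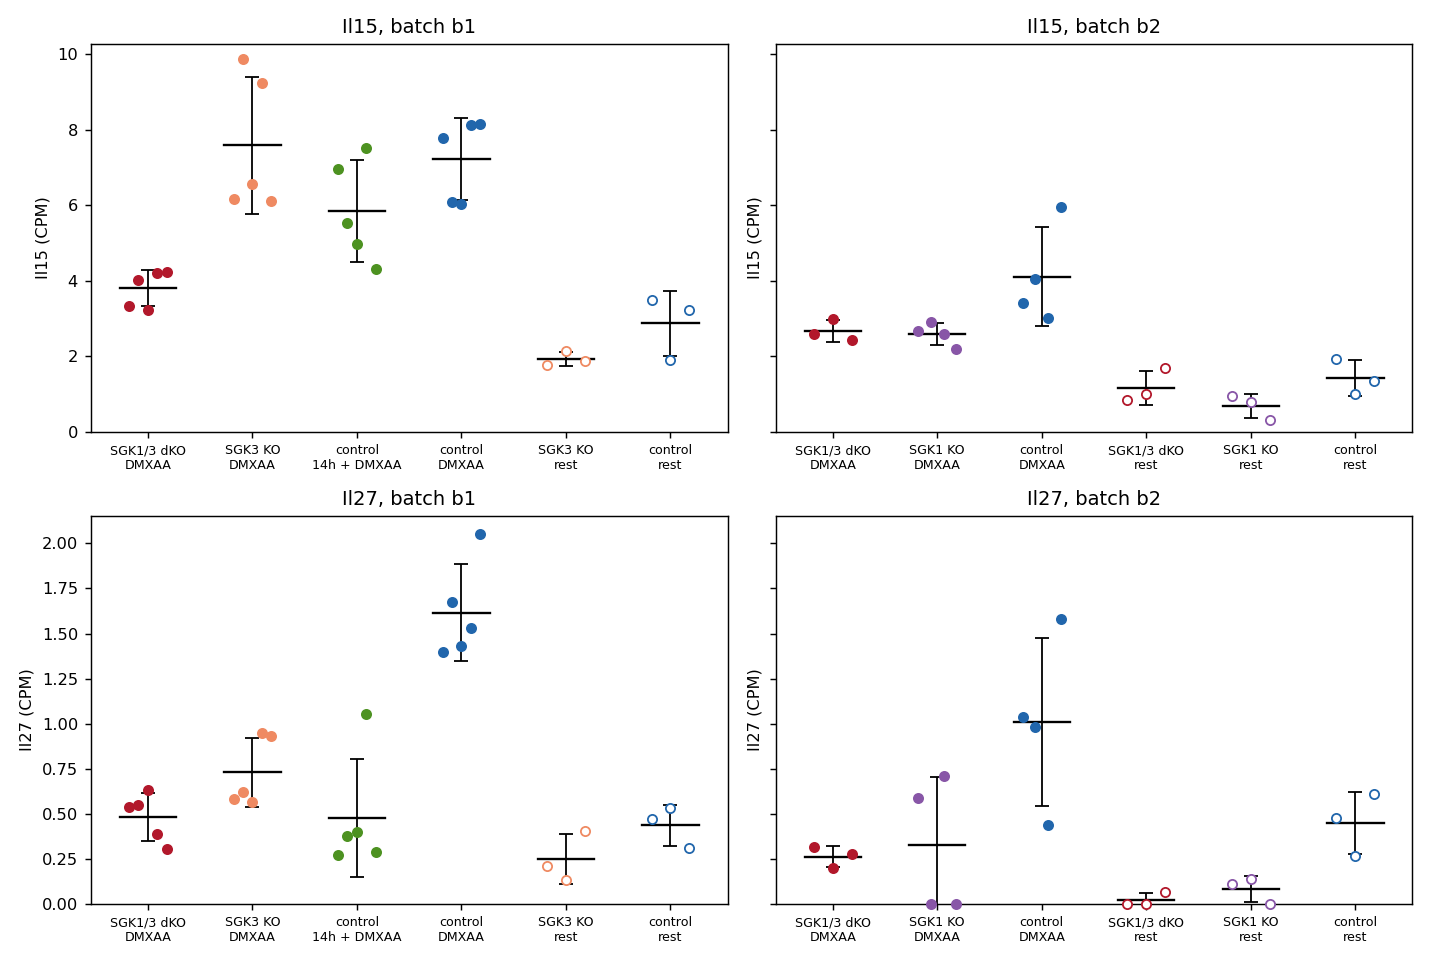
Il15 and Il27 in each library of b1 and b2, in CPM on linear axes, by genotype and treatment, where each point is 1 library, filled with DMXAA and open at rest, and the bar is the group mean. In b1 with DMXAA the double knockout is lowest for Il15, at 3.23 to 4.24 CPM, and control cells are highest for Il27, at 1.40 to 2.05 CPM.

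In b1, DMXAA raised Il27 in the SGK3 knockout (by log2 1.56 ± 0.42, adjusted p = 0.00479, edgeR) and in control cells (1.89 ± 0.41, adjusted p = 0.000401). With DMXAA it was at 29.7% of the control mean in the double knockout (-1.75 ± 0.34, adjusted p = 0.00014) and at 45.1% in the SGK3 knockout (-1.15 ± 0.33, adjusted p = 0.00964). With the inhibitor and DMXAA it was at 29.4% (-1.77 ± 0.34, adjusted p = 0.000223). These inhibitor-pretreated cells did not differ past the threshold from control cells at rest (0.12, 95% interval -0.66 to 0.89, adjusted p = 0.871). The rise in the SGK3 knockout missed the threshold without its rest library 2 (1.25, adjusted p = 0.0513), and all 5 of these calls ended in a joint fit of both batches (adjusted p between 0.118 and 0.412). Over all genes, that fit called fewer in every comparison within b1 and more in every comparison within b2. In b2 no comparison passed for Il27 in the main fit, and the intervals were wide. They ran from -1.68 to 4.01 for the response of control cells, and, with DMXAA, from -4.88 to 1.00 for the double knockout and from -4.26 to 0.98 for the SGK1 knockout against control cells. In the joint fit the double knockout passed for its response (adjusted p = 0.0326) and at rest against control cells (0.0144). Its resting mean, 0.0221 CPM, lay under the floor of 0.143 CPM.

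Il10 (ENSMUSG00000016529.6, chr1:130947582-130952711, plus strand, GRCm39), which encodes an anti-inflammatory cytokine, had 0 counts in all 6 resting libraries of b1. With DMXAA in b1 it had 10, 5, 6, 9 and 0 counts in the double knockout and 16, 4, 0, 8 and 23 in the SGK3 knockout. It had 11, 68, 30, 33 and 8 counts in inhibitor-pretreated control cells and 22, 20, 33, 9 and 35 counts in control cells. It entered the test in b1 through libraries with DMXAA and, with 0 counts at rest, could pass only upward against rest. Control cells with DMXAA passed against rest (adjusted p = 0.000474, edgeR) and were at 0.336 ± 0.169 CPM. This mean was 1.91 times the floor of 12 counts per library in resting control cells. Inhibitor-pretreated cells with DMXAA passed too (adjusted p = 0.000437) and were at 0.38 ± 0.258 CPM, 2.16 times that floor. These ratios of means do not allow for the spread. Control library 4 (9 counts) and inhibitor libraries 1 and 5 (11 and 8 counts) lay under 12 counts. The SGK3 knockout with DMXAA also passed against rest (adjusted p = 0.00613), but its mean lay under the floor and both limma fits on TPM lost the call. In b2 with DMXAA, Il10 had 0, 21 and 28 counts in the double knockout, 0, 6, 31 and 0 in the SGK1 knockout and 8, 6, 7 and 3 in control cells. Of the 9 resting libraries of b2, 8 had 0. No b2 response of Il10 passed in the main fit (adjusted p = 0.172 in the double knockout, 0.163 in the SGK1 knockout and 0.858 in control cells). In the joint fit the responses of the double knockout (adjusted p = 0.0184) and of the SGK1 knockout (0.0303) passed. In both knockouts the libraries with DMXAA ranged from 0 to over 20 counts. All their resting libraries had 0, so these responses could pass only upward. With DMXAA in b1, Il10 did not pass against control cells in the double knockout (log2 fold change -2.01 ± 0.81, adjusted p = 0.0684), although it did in 4 of 20 alternatives, nor in the SGK3 knockout (-1.43 ± 0.78, adjusted p = 0.208) or with the inhibitor (0.18 ± 0.75, adjusted p = 0.908).

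Il6 (ENSMUSG00000025746.12, chr5:30218112-30224979, plus strand, GRCm39), which encodes a cytokine of fever and the acute phase, was tested in b1 only. With DMXAA it had 10, 0, 15, 6 and 9 counts in the double knockout and 12, 17, 4, 8 and 4 in the SGK3 knockout. It had 5, 5, 18, 11 and 14 in inhibitor-pretreated control cells and 21, 3, 22, 14 and 30 in control cells. At rest it had 0 in every SGK3-knockout library and 4, 0 and 0 in control cells. Il6 entered the test through libraries with DMXAA and, with such resting counts, could pass only upward against rest. It passed for DMXAA over rest in the SGK3 knockout (adjusted p = 0.00672, edgeR) and in control cells (adjusted p = 0.0185). The SGK3 knockout with DMXAA was at 0.118 CPM, under the floor of 0.153 CPM, so no fold is given, and its call ended in both limma fits on TPM (adjusted p = 0.214 and 0.0698) and in the joint fit (0.0839). Control cells were at 0.249 ± 0.149 CPM with DMXAA and 0.0189 ± 0.0327 CPM at rest (SD, n = 5 and 3), the second under its floor of 0.176 CPM, so no fitted fold is given. Their libraries overlapped, and the call ended without rest library 2 (adjusted p = 0.0835) or 3 (0.0856) and in the joint fit (0.21). In b2, DMXAA libraries of Il6 were at 0 apart from 5 counts in double-knockout library T, 40 in SGK1-knockout library P and 39 and 3 in control libraries M and N. With DMXAA in b1, Il6 did not pass against control cells in the double knockout (-1.18 ± 0.83, adjusted p = 0.327), in cells lacking SGK3 alone by label (-1.07 ± 0.82, adjusted p = 0.401) or with the inhibitor (-0.82 ± 0.82, adjusted p = 0.554).

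The other 4 members stayed near or at 0. Il1b (ENSMUSG00000027398.14, chr2:129206490-129213059, minus strand), the precursor of IL-1β, had at most 23 counts in any library and 0 in 25 of the 50. In b1 with DMXAA it had 3, 3, 4, 7 and 0 counts in the double knockout and 0, 0, 4, 14 and 3 in the SGK3 knockout. It had 5, 13, 4, 3 and 0 with the inhibitor and 11, 7, 5, 4 and 6 in control cells, so the groups overlapped. In b2 with DMXAA it had 8, 0 and 0 counts in the double knockout, 15, 0, 0 and 21 in the SGK1 knockout and 2, 0, 0 and 4 in control cells. Il1a (ENSMUSG00000027399.2, chr2:129141530-129151892, minus strand), for IL-1α, had 0 counts in 43 libraries and at most 13, in SGK1-knockout rest library E. Lif (ENSMUSG00000034394.15, chr11:4207557-4222514, plus strand), for leukaemia inhibitory factor, had 0 in 41 libraries and at most 24, in SGK1-knockout DMXAA library Q, and all its counts fell in libraries with DMXAA. Il12b (ENSMUSG00000004296.15, chr11:44290890-44304860, plus strand), for the p40 subunit of IL-12, had 0 in all 50. No test was made for these 4 genes within either batch, and a floor of 12 counts corresponded to 0.126 to 0.191 CPM by group, for counting error only. Il1b entered the joint fit and passed no contrast between batches.

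**Figure D4:**
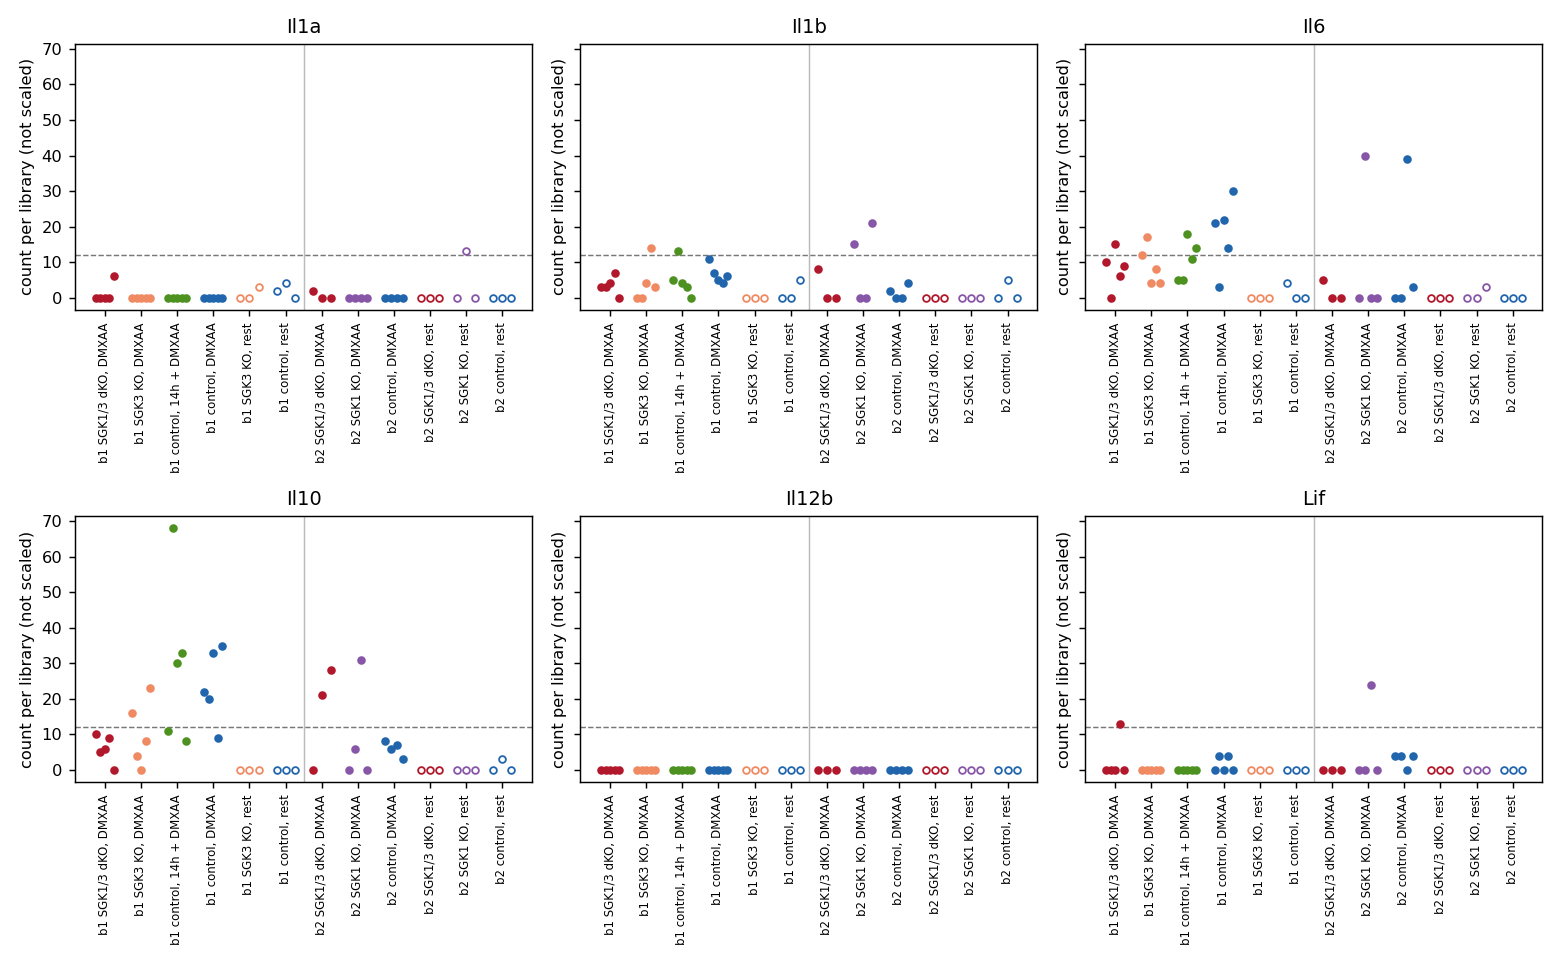
Deposited counts, not scaled for depth, of Il1a, Il1b, Il6, Il10, Il12b and Lif in each library by group, where each point is 1 library and the dashed line marks the floor of 12 counts. Most points lie under the line, and the highest are 68 counts of Il10 with the inhibitor and 40 of Il6 in the SGK1 knockout.

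Counted over the tested members, the response to DMXAA was upward wherever it passed. In b1, 5 of 6 members passed in the SGK3 knockout, all upward, where 30.1% of all genes tested passed in either direction, and 5 of 6 in control cells, all upward, where 35.3% passed. With inhibitor and DMXAA against rest, 3 of 6 rose (Tnf, Il10 and Il15), beside 32.5% of all genes. Il6 and Il10 are among the 5 of both lines. In resting libraries of b1, Il10 had 0 counts and Il6 at most 4, so they could pass only upward. They entered the test through libraries with DMXAA. With counts divided by 4, which leaves both untested, 3 members passed in the SGK3 knockout and 3 in control cells. In b2, 2 of 5 rose in the double knockout (Tnf and Il1rn), beside 6.76% of all genes. There 3 of 5 rose in the SGK1 knockout (Tnf, Il1rn and Il15), beside 11.2%, and 2 of 5 in control cells (Tnf and Il15), beside 3.98%. The median log2 fold change of the tested members was 2.66 in the SGK3 knockout and 2.73 in control cells of b1. In b2 it was 2.96 in the double knockout, 1.97 in the SGK1 knockout and 1.54 in control cells, while that of all tested genes lay between -0.02 and 0.01. The medians of b1 include Il6 and Il10, and those of b2 Il10 and, in both knockouts, Il27, whose fitted values rest on groups under the floor. With group means under the floor set to it, the median was 0.69 in the SGK3 knockout and 1.13 in control cells of b1. On the same footing it was 1.20 in the double knockout, 1.57 in the SGK1 knockout and 1.16 in control cells of b2. The responses of control cells in b1 and b2 did not differ past the threshold for any of 7 members tested jointly, beside 3.21% of all genes (1 member, Il10, at an unadjusted p of 0.043, and 0 in DESeq2).

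Against control cells with DMXAA, 4 of 6 members passed in the double knockout of b1, all lower (Tnf, Il1rn, Il15 and Il27), beside 26.4% of all genes in either direction, and 2 of 5 in b2 (Tnf and Il1rn), beside 12.8%. In the SGK3 knockout 1 of 6 rose (Il1rn) and 2 fell (Tnf and Il27), beside 22.9%. In the SGK1 knockout 1 of 5 fell (Il1rn), beside 8.72%, and with the inhibitor 2 of 6 fell (Tnf and Il27), beside 20.8%. So few members were tested that 1 or 2 passing beside such a background says nothing about the list as a whole. At rest only Il1rn passed in any line. It rose in the SGK3 knockout as 1 of 6 members, beside 10.4% of all genes, and it fell in the SGK1 knockout and in the double knockout as 1 of 5, beside 6.43% and 3.03%. With DMXAA the median log2 fold change of the tested members was -1.46 and -0.75 in the double knockout of b1 and b2, -0.76 in the SGK3 knockout, -0.67 in the SGK1 knockout and -0.49 with the inhibitor. With means set to the floor it was -0.99 in the double knockout of b1 and -0.57 in the SGK3 knockout. That of all tested genes was between -0.01 and 0.00. In b2 the summed level of the 10 macrophage markers with DMXAA was 7381 to 8617 CPM in the double knockout, 8246 to 9603 CPM in the SGK1 knockout and 11490 to 13140 CPM in control cells. At rest that sum was 8500 to 9719 CPM in the double knockout, 8235 to 9892 CPM in the SGK1 knockout and 10980 to 12280 CPM in control cells. Lyz2 and Csf1r made up most of that sum, so it says little about the other markers. The sums of b2 control cells also lay above those of every group of b1, control cells included. Of 9 markers tested, 5 were lower in the double knockout with DMXAA and 4 at rest, with 0 higher. In the SGK1 knockout 3 were lower with DMXAA and 2 at rest, and 1 was higher in each. The part of these markers in the b2 differences, those of Il1rn at rest included, was not tested. In b1 that sum ran from 7020 to 8971 CPM in the double knockout, from 7599 to 9174 CPM in the SGK3 knockout, from 7394 to 8079 CPM with the inhibitor and from 7750 to 8593 CPM in control cells, so that these groups overlapped. With the inhibitor, however, 5 of the 9 markers were lower than in control cells with DMXAA and 0 higher (median log2 fold change -0.14), and their part in the lower Tnf and Il27 was not tested.

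**Figure D5:**
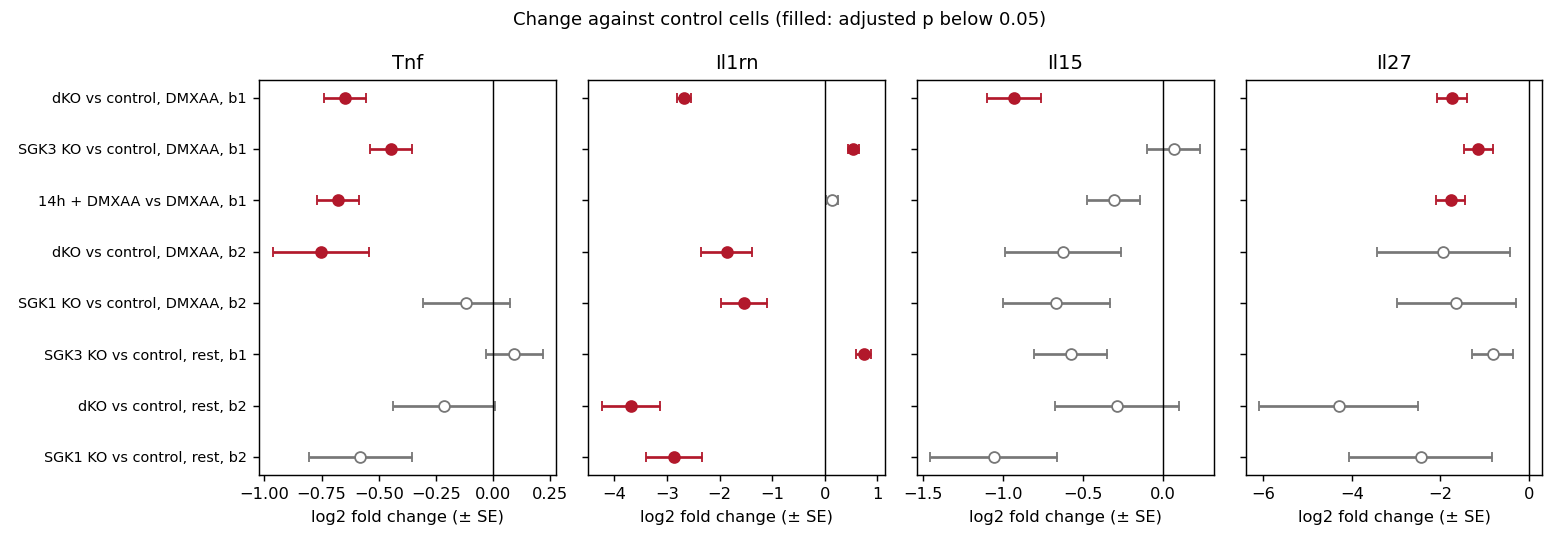
Log2 fold change of Tnf, Il1rn, Il15 and Il27 in each knockout line or with the inhibitor against control cells of the same batch and treatment, with SE bars from edgeR, where filled points have an adjusted p under 0.05. Il1rn lies at -2.68 in the double knockout and 0.54 in the SGK3 knockout with DMXAA in b1, while Tnf lies between -0.75 and -0.12 in all 5 comparisons with DMXAA.

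Compared with each other, the double and SGK3 knockouts differed past the threshold in Il1rn and Il15, and the double and SGK1 knockouts in no member. In b1 with DMXAA the double knockout was lower than the SGK3 knockout in Il1rn (log2 fold change -3.22 ± 0.13, adjusted p = 3.4e-19, edgeR) and in Il15 (-0.996 ± 0.17, adjusted p = 0.000119). These were 2 of 6 members, beside 5.06% of all genes. Tnf did not pass between these lines (-0.20, 95% interval -0.38 to -0.02, adjusted p = 0.297), nor did Il27 (-0.60, adjusted p = 0.455), Il10 (-0.58, adjusted p = 0.871) or Il6 (-0.11, adjusted p = 0.986). In b2 with DMXAA none of 5 members passed between the double knockout and the SGK1 knockout, beside 1.97% of all genes (1 member, Tnf, at an unadjusted p of 0.00724, 1 in DESeq2 and 0 in limma). Tnf was -0.64 there (95% interval -1.05 to -0.22, adjusted p = 0.164) and Il1rn -0.33 (-1.24 to 0.59, adjusted p = 0.883). That of Tnf passed in DESeq2 (0.0429), with the length trend removed (0.033) and in the joint fit (0.0165). Il15 was 0.04 (-0.66 to 0.74, adjusted p = 0.995), Il27 -0.30 (-3.10 to 2.49, adjusted p = 0.983) and Il10 1.15 (-2.66 to 4.96, adjusted p = 0.908).

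Inhibitor-pretreated cells were higher than the double knockout in Il1rn (log2 fold change 2.82 ± 0.13, adjusted p = 4.7e-18, edgeR) and in Il15 (0.62 ± 0.17, adjusted p = 0.00643). These were 2 of 6 members, beside 23.5% of all genes. Tnf and Il27 did not pass between these groups, with intervals of -0.21 to 0.15 and -0.69 to 0.64 on the log2 scale (adjusted p = 0.87 and 0.974). Il10 was close to the threshold (2.19 ± 0.81, adjusted p = 0.0501) and passed in 7 of 20 alternatives, among them DESeq2 (0.0214), both limma fits (0.0116 and 0.0119) and the groups alone (0.0351). Il6 did not pass (0.36 ± 0.83, adjusted p = 0.82), and the Il15 call ended in the joint fit (0.0644). Against the SGK3 knockout, inhibitor-pretreated cells were lower in Il1rn (-0.40 ± 0.11, adjusted p = 0.00736), 1 of 6 members, beside 22.0% of all genes, and Tnf was -0.23 (95% interval -0.41 to -0.05, adjusted p = 0.074). The Il1rn call ended in the joint fit (0.416), and Tnf passed in a fit of the groups alone (0.00694). Il15 (-0.38, adjusted p = 0.111), Il27 (-0.63, adjusted p = 0.203), Il10 (1.61, adjusted p = 0.153) and Il6 (0.25, adjusted p = 0.888) did not pass. Without inhibitor library 4, Il15 and Il27 were lower than in the SGK3 knockout too (Il15 -0.48, adjusted p = 0.0495, and Il27 -1.12, adjusted p = 0.00924).

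No member passed the test of a different response to DMXAA between a knockout and control cells. This was 0 of 6 for the SGK3 knockout, beside 1.04% of all genes (2 members, Tnf and Il15, at an unadjusted p under 0.05, and 1 in DESeq2). It was 0 of 5 for the SGK1 knockout, beside 0.451% (0 at an unadjusted p under 0.05 and 0 in DESeq2). It was also 0 of 5 for the double knockout, beside 0.782% (1 member, Il1rn, at an unadjusted p under 0.05, and 0 in DESeq2). For Il15 in the SGK3 knockout the difference of responses was 0.64 (95% interval 0.09 to 1.20, adjusted p = 0.391). The double-knockout effect with DMXAA did not differ past the threshold between b1 and b2 for any of 7 members, beside 7.27% of all genes (1 member, Il1rn, at an unadjusted p of 0.0499, 0 in DESeq2 and 2 in limma on log2(TPM + 1)).

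The receptors of these cytokines moved in both directions with DMXAA. Of 16 receptor genes, 13 were tested, and Il1r1, the signalling receptor of IL-1, was at 0. In control cells of b1, 3 rose with DMXAA and 5 fell, beside 35.3% of all genes called in either direction. The highest rise was that of Il15ra, which presents IL-15 (log2 fold change 0.96 ± 0.12, adjusted p = 8.0e-08, edgeR), and the deepest fall that of Il10ra, the IL-10 receptor (-1.54 ± 0.13, adjusted p = 2.2e-11). In b2 Il10ra fell as well (-0.49 ± 0.11, adjusted p = 0.00874), a call that ended without rest library C (adjusted p = 0.116), with b3 added (0.11) and in both limma fits, and no other receptor passed. With DMXAA, Tnfrsf1b, the second TNF receptor, was higher in the double knockout than in control cells (0.73 ± 0.14, adjusted p = 0.00152) and in the SGK1 knockout (0.94 ± 0.14, adjusted p = 7.6e-05) of b2. Its response to DMXAA differed from that of control cells in the double knockout (difference of log2 fold changes 1.20 ± 0.21, adjusted p = 0.00728). All 3 calls of Tnfrsf1b ended with the b3 libraries added (adjusted p = 0.772 and 0.237 against control cells and 1.0 for the difference of responses). In b1 Lifr, the LIF receptor, was lower with DMXAA in the double knockout (-0.76 ± 0.12, adjusted p = 1.2e-05) and in the SGK3 knockout (-1.49 ± 0.13, adjusted p = 4.2e-11). Il15ra was lower with the inhibitor (-0.61 ± 0.10, adjusted p = 3.8e-05). The median over the tested receptors was 0.05 in the double knockout with DMXAA in b1 and -0.16 with the inhibitor, against 0.00 over all genes.

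Of 11 genes that release or process TNF and IL-1, all were tested. Rhbdf2 encodes iRhom2, the partner that brings ADAM17 to the cell surface. In control cells of b1 it was at 113 CPM with DMXAA and 43.1 CPM at rest (log2 fold change 1.39 ± 0.11, adjusted p = 7.2e-11, edgeR), and it rose in b2 too (1.02 ± 0.10, adjusted p = 5.2e-07). Adam17 itself rose by less in b1 (0.54 ± 0.08, adjusted p = 4.5e-06), and Nlrp3, an inflammasome sensor, fell in both batches (-0.55 ± 0.10 and -0.47 ± 0.08). Capn1, a calpain protease, was higher in all 3 knockout lines. With DMXAA it was at 14.6 CPM in the double knockout and 3.28 CPM in control cells of b1 (log2 fold change 2.16 ± 0.13, adjusted p = 9.8e-15). The log2 fold change was 2.34 ± 0.13 in the SGK3 knockout, 2.40 ± 0.21 in the SGK1 knockout and 2.55 ± 0.22 in the double knockout of b2. At rest Capn1 was likewise higher, by 2.31 in the SGK3 knockout, 2.37 in the SGK1 knockout and 2.35 in the double knockout on the log2 scale. With the inhibitor it was lower (-0.41), a call that ended without inhibitor library 1 or 4 or control library 3 or 5 (adjusted p between 0.0753 and 0.0876). In total 2 of the 11 rose and 4 fell in the double knockout of b1 with DMXAA, and 0 rose and 5 fell with the inhibitor, including Rhbdf2 (-0.61 ± 0.09, adjusted p = 1.3e-05) and Casp4, the caspase-11 gene (-0.74). Over all genes 26.4% and 20.8% were called in these comparisons.

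Of 20 other cytokine genes, 13 were tested in b1 and 14 in b2. In control cells of b1, where 35.3% of all genes were called, 3 rose with DMXAA, among them Lta, which encodes lymphotoxin alpha, a close relative of TNF (log2 fold change 2.15 ± 0.53, adjusted p = 0.00165, edgeR), and Il16 fell (-1.14 ± 0.10). With DMXAA, none of 13 rose and 4 fell in the double knockout of b1, a share near the 26.4% of all genes called there, with Lta at -1.71 and Il18, the precursor of IL-18, at -1.31 ± 0.13 (adjusted p = 2.6e-09). Il18 was also lower with DMXAA in the double knockout of b2 (-0.93 ± 0.22, adjusted p = 0.00619) and in the SGK3 knockout (-1.16), and at rest in the SGK3 knockout (-1.33). In the SGK1 knockout it passed with DMXAA (-0.76) until library K, N, P or R was left out (adjusted p between 0.0501 and 0.0701). At rest it passed in the SGK1 knockout (-0.77) until A, B, C, D or F was left out (0.0582 to 0.253), the steep libraries were (0.194) or b3 was added (0.0755), and in the double knockout (-0.90) until A, B, C, G or I was left out (0.0561 to 0.183). With the inhibitor 3 fell, beside 20.8% of all genes, led by Csf1, which encodes the macrophage growth factor M-CSF (-1.959), and Lta (-1.32). The Csf1 call ended without inhibitor library 1, 2 or 3 or control library 2 (adjusted p between 0.0534 and 0.0733) and the Lta call without inhibitor library 1, 2 or 4 or control library 1 (0.0512 to 0.0669). The median of the list with DMXAA in the double knockout was -0.63 in b1 and -0.21 in b2.

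The 9 genes tested for control of cytokine mRNA stability mostly rose with DMXAA, 7 up and 1 down in control cells of b1 (median log2 fold change 1.03) and 6 up and 0 down in b2 (median 0.80), beside 35.3% and 3.98% of all genes called in either direction. Zfp36, which encodes the Tnf mRNA decay factor tristetraprolin, was at 127 CPM with DMXAA and 28.0 CPM at rest in b1 control cells (2.18 ± 0.12, adjusted p = 4.1e-13, edgeR). Zc3h12a, which encodes the endonuclease Regnase-1, rose by 1.73 ± 0.11 in b1 and 2.15 ± 0.22 in b2. With DMXAA, the double knockout of b1 had less Zfp36 than control cells (-0.59 ± 0.10, adjusted p = 4.1e-05), and so did inhibitor-pretreated cells (-0.48 ± 0.10, adjusted p = 0.000798). In these comparisons 0 of the 9 rose, while 4 fell in the double knockout and 6 with the inhibitor, beside 26.4% and 20.8% of all genes. In b2 with DMXAA 1 of the 9 fell in the double knockout, Zfp36l2 (-0.26), a call that ended without T, X, L, M or N (adjusted p between 0.0507 and 0.121). Of 15 genes of TNF, IL-1 and cytokine receptor signalling, 8 rose and 4 fell with DMXAA in control cells of b1, and 2 rose and 1 fell in b2, beside the same 35.3% and 3.98%. Cflar, an inhibitor of caspase-8 activation, rose in both batches (1.84 ± 0.08 and 1.55 ± 0.13) and Socs3, a feedback inhibitor of cytokine receptors, fell in both (-1.58 ± 0.15 and -1.93 ± 0.27). With DMXAA in b2 Socs3 was higher in the double knockout than in control cells (1.28), while it did not pass in b1 (-0.14 ± 0.14, adjusted p = 0.513).

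Over the 12 group means of log2 CPM, centred within each batch, the genes most like Tnf among 9907 were Ppp1r15a (Pearson r = 0.998), Tnfaip3 (0.997), Ccl3 (0.996), Slc25a25 (0.994) and Ccl4 (0.993). Those most like Il1rn were Miga1 (0.95), Htr1b (0.936), Tmem98 (0.919), Cytip (0.916) and Blnk (0.911). Among the members, Tnf had an r of 0.924 with Il15, 0.645 with Il27 and 0.138 with Il1rn. The points share libraries and depth, so these are descriptions of likeness over 12 groups.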

How the data were processed

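Poly-A RNA of 50 libraries of RAW264.7 cells was sequenced. Per the submitters' processing notes, the tools named are STAR 2.7.9a and StringTie 2.2.0 and the build is GRCm39, and the deposited tables name GENCODE M27 as annotation. The authors deposited estimated counts per gene, whole numbers used as they were, and TPM values per gene, normalized by the authors for length and depth. TPM was used to compare levels between genes and in an alternative test. How reads were filtered and counted was not given in the sources used here, and strand and reads shared between genes cannot be told from the counts. The most frequent value from 1 to 16 was 4 counts (17.5% of protein-coding values), so 1 read pair was taken as 4 counts and the floor of 3 pairs as 12 counts. This unit is an assumption.

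Groups were taken from the titles and batches from the batch field. Library J of b3, whose title and treatment field differ, was put in no group. No 2 libraries held identical values. Each batch was fitted alone with 1 coefficient per group (26 libraries in b1, 20 in b2) in edgeR 4.0.16 under R 4.3.3, with TMM scaling, filterByExpr (minimum count 10), the robust quasi-likelihood F test and Benjamini-Hochberg adjustment over 16947 genes in b1 and 16622 in b2, at a threshold of 0.05. Contrasts between batches came from a joint fit of 46 libraries and 18315 genes. The 95% intervals come from the log2 fold change and its SE by a normal approximation. The SE is the log2 fold change divided by the square root of F. These intervals ignore the limited degrees of freedom of the F test and are too narrow. An interval wholly on 1 side of no change can therefore go with an unadjusted p above 0.05. Levels are CPM on TMM-scaled sizes within a batch, b3 being scaled with b2, as mean ± SD. The procedure was tested on simulated counts of compared groups alone, with the same dispersion for every gene and no length trend. Such counts lack the steep trends of some b2 libraries, so that test does not bear on calls that depend on them. Replicate numbers are shared in b1 only, and libraries with the same number did not deviate together (correlations from -0.242 to 0.177), so no block entered the main fit.

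The alternatives were RLE size factors, DESeq2 1.42.0, no filter, limma 3.58.1 on log2(TPM + 1) and log2(TPM + 0.1), the compared groups alone, the joint fit, a replicate block, removal of each library's length trend, b2 without the libraries with a steep trend, b3 libraries added, counts divided by 4, and leaving out each library. The division by 4 was chosen after seeing the data. The members and the gene lists were chosen with earlier results of these data known. The rule was to name all 10 members in each comparison. The 4 not tested within a batch are given once, and members that did not pass a difference of responses or between batches are partly given as counts. Of other lists, at most 3 genes per direction with the largest fold change past the threshold are named. Promoters were RefSeq entries on GRCm38.p6.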

Additional observations from a re-analysis of the deposited data

Results flagged for a closer look

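Over 34 combinations of a tested member with a group of 4 or 5 libraries, 1 library stood apart in 2 of them by Dixon's test at 95%, a test that by chance flags about 1 such combination in 20. Tnf in double-knockout library 5 of b1 with DMXAA was at 245.6 CPM, against 353 to 373 CPM in the other 4 double-knockout libraries, and without it the log2 fold change of the double knockout against control cells was -0.55 ± 0.07 (adjusted p = 2.3e-07, edgeR). Il27 in inhibitor library 4 of b1 was at 1.051 CPM, against 0.270 to 0.399 CPM in the other 4, and without it the log2 fold change of the inhibitor against control cells with DMXAA was -2.27 ± 0.32 (adjusted p = 4.4e-06).

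The 4 rerun libraries of b3 entered no main comparison, and their levels of Tnf and Il15 were above those of resting control cells of b2, at up to 45.5 CPM of Tnf and 1.92 CPM of Il15. Tnf was at 359.9 and 353.2 CPM in the double-knockout libraries V and W with DMXAA, at 483.2 CPM in SGK1-knockout library S with DMXAA and at 425.7 CPM in library J. Il15 was at 3.293 and 2.407 CPM in libraries V and W, at 4.028 CPM in S and at 4.374 CPM in J.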

How the results depend on the processing

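Of the counts of members past the threshold under the alternatives, 419 stayed within 1.5 times the main count and 55 did not. No member's called value changed direction in any alternative. Joint fit of both batches: 3 instead of 5 for the response of the SGK3 knockout and of b1 control cells, 5 instead of 2 for that of the double knockout, and 1 instead of 0 for the difference of the double-knockout response from that of control cells. For lines against control cells it gave, at rest, 0 instead of 1 (SGK3 knockout), 3 instead of 1 (SGK1 knockout) and 2 instead of 1 (double knockout), and with DMXAA 1 instead of 3 (SGK3 knockout), 2 instead of 1 (SGK1 knockout) and 1 instead of 2 (inhibitor). Between edited or treated lines it gave 1 instead of 0 for the double against the SGK1 knockout, 1 instead of 2 for the inhibitor against the double knockout and 0 instead of 1 against the SGK3 knockout. DESeq2 gave 3 instead of 1 for the SGK1 knockout at rest, 1 instead of 0 for the double against the SGK1 knockout and 1 instead of 0 for the difference of the SGK3-knockout response from that of control cells. Limma on log2(TPM + 1) gave 3 instead of 5 for the SGK3-knockout response, 2 instead of 1 for the inhibitor against the SGK3 knockout and 2 instead of 0 for the difference between batches of the double-knockout effect, and limma on log2(TPM + 0.1) gave 3 and 2 for the same first 2 and 0 instead of 1 for the SGK1 knockout with DMXAA. Groups compared alone: 1 instead of 2 for the double-knockout response, 0 instead of 1 for the SGK1 knockout at rest, 2 instead of 1 for the inhibitor against the SGK3 knockout and 1 instead of 0 for the difference of the SGK3-knockout response. Without the steep libraries: 1 instead of 3 for the SGK1-knockout response, 0 instead of 1 for the SGK1 knockout at rest, 1 instead of 2 for the double knockout with DMXAA in b2 and 1 instead of 0 for the difference between batches of that effect. With b3 added: 0 instead of 1 for the SGK1 knockout and 1 instead of 2 for the double knockout, both with DMXAA. Removing the length trend gave 1 instead of 0 for the double against the SGK1 knockout. Counts divided by 4, which leaves Il6 and Il10 untested, gave 3 instead of 5 for the response of the SGK3 knockout and of b1 control cells. The cause of the other changes was not tested.

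Leaving out 1 library gave 0 to 1 for the SGK1 knockout with DMXAA, 1 to 2 for the SGK1 knockout at rest, 0 to 1 for the difference of the SGK3-knockout response, 1 to 2 for the SGK3 knockout at rest, 1 to 2 for the b2 control response, 1 to 2 for the double-knockout response, 0 to 2 for the double knockout with DMXAA in b2 and 1 to 3 for the inhibitor against the SGK3 knockout. The other comparisons stayed within 1.5 times.

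With the replicate number as a block in b1, the counts of members past the threshold were as in the main fit in every b1 comparison, 5 for control cells and 4 for the double knockout with DMXAA among them. Only 4 of 57 pairs of same-numbered libraries correlated above 0.1, so the numbers were not taken as pairing. With the block and the length trend removed together, the inhibitor against the SGK3 knockout gave 2 instead of 1.

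Over all genes, the number called moved by over 1.5 times in 21 of 21 comparisons under the joint fit (SGK1 knockout at rest, 4732 instead of 1069), in 6 of 23 under DESeq2 (2574 for the same comparison), in 5 of 23 with groups alone (263), in 4 of 12 without the steep libraries (176), in 7 of 12 with b3 added, in 7 of 23 with the length trend removed, and in 6 and 3 of 23 under limma with a pseudocount of 0.1 and 1. The joint fit takes 1 spread per gene over both batches, whose spreads differ. Under it every comparison within b1 called fewer genes (control response, 3870 instead of 5989) and every comparison within b2 more. Calls of members lost in b1 or gained in b2 under that fit are to be read beside this shift. Depth limits Il1a, Il1b, Il6, Il10 and Lif, most of whose libraries were under 12 counts.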

Other observations

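Library J of control cells is titled as not treated, while its treatment field gives DMXAA, and it was put in no group. It had 425.7 CPM of Tnf, 6.74 CPM of Il1rn, 4.37 CPM of Il15 and 0.994 CPM of Il27. Control libraries of b2 with DMXAA had 348 to 519 CPM of Tnf, 6.23 to 7.13 CPM of Il1rn, 3.01 to 5.95 CPM of Il15 and 0.438 to 1.58 CPM of Il27.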
